A study of Populus tremula x Populus tremuloides with 22 samples.

Results

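Stems of hybrid aspen that overexpress Arabidopsis LBD11 were compared directly with stems that overexpress Arabidopsis LBD4, gene by gene and without reference to untransformed trees. The libraries were chosen by their titles, which name the construct, and 17 of the 22 libraries of the series entered the comparison. The LBD11 overexpressors (LBD11-OE) were 9 libraries from lines LBD11-OE-1, LBD11-OE-2 and LBD11-OE-14 with 3 libraries each. The LBD4 overexpressors (LBD4-OE) were 8 libraries, 3 each from lines LBD4-OE-11 and LBD4-OE-17 and 2 from line LBD4-OE-14. The other 5 libraries were from wild type (WT) trees and are quoted only as a reference level. All trees were hybrids of Populus tremula and Populus tremuloides grown in a greenhouse, and polyadenylated RNA was taken from stem internodes at 3 weeks of age. Per the series title the overexpression was specific to xylem, and the promoter was not given in the sources used here. A line stands for a single transformation event, and the last LBD11-OE line has the number 14 in its title, followed here, and 3 in its genotype label. The labels do not say whether replicates of a line came from separate trees, so the p-values reflect the spread among these samples alone, and that spread may be technical.

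LATERAL ORGAN BOUNDARIES DOMAIN (LBD) proteins are transcription factors found only in plants, named for a founding member expressed at the base of lateral organs. In Arabidopsis both LBD4 and LBD11 act in vascular development. Wood is secondary xylem, laid down by the vascular cambium as cells that expand within a primary wall, then deposit a secondary wall of cellulose, xylan and lignin and die. Levels of the Arabidopsis transgenes were not analysed here, because the counted gene models are those of poplar, with Potri identifiers. Identifiers come without gene names in the files, so single genes are given by identifier and position, and what they encode is not stated.

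The 17 libraries held 23437445 to 38171334 counted reads (median 32217906), and 27836 to 28374 of the 34699 gene models were counted at least once. Principal component 1, with 34.3% of the variance, separated the constructs completely, LBD4-OE lying between -41.1 and -18.3 and LBD11-OE between 9.94 and 46.5. The 3 libraries of LBD11-OE-14 lay farthest out on the LBD11 side, at 43.4 to 46.5. LBD4-OE-17 replicate 2 lay nearest to the LBD11-OE libraries among LBD4-OE, at -18.3, and LBD4-OE-11 replicate 1 was at the top of component 2, at 41.9. By the level of 1 gene alone, the libraries also fell into 2 sets that cut across the constructs. The gene Potri.008G224138 was at 0.847 to 1.62 CPM (counts scaled to library size, per 1e6) in all 6 libraries of LBD4-OE-11 and LBD11-OE-2 and at 19.5 to 54.9 CPM in the other 11. In WT, replicate 3 was at 0.425 CPM and the other 4 libraries were at 21.97 to 31.1 CPM. The labels name no batch, and this split coincides with lines among the overexpressors and also runs within WT.

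**Figure D1:**
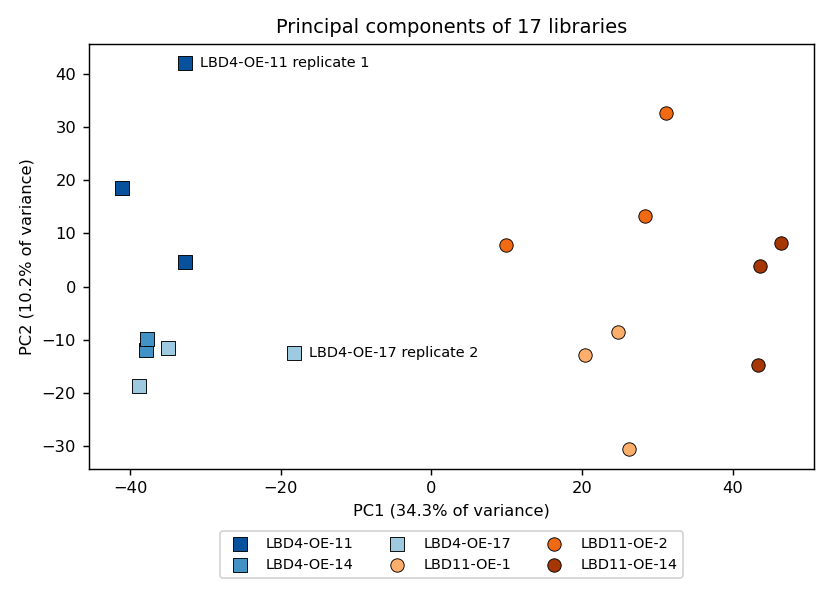
The first 2 principal components of log2 CPM, in units of score, with 1 point per library, squares for LBD4-OE and circles for LBD11-OE. Component 1 places all LBD4-OE libraries at or under -18.3 and all LBD11-OE libraries at or above 9.94, with line LBD11-OE-14 at 43.4 to 46.5.

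The stems of the 2 constructs differed in many genes, mostly by small amounts. Of 24910 genes with enough reads to be tested, 4557 (18.3%) differed between LBD11-OE and LBD4-OE, 2180 higher under LBD11 (8.75%) and 2377 lower (9.54%). The median size of these differences was 0.40 on the log2 scale. At least 2-fold, 373 genes were higher under LBD11 and 303 were lower, and at least 4-fold 107 and 88. In bulk stem tissue, fewer cells of a type and less RNA per cell cannot be told apart. Genes were tested with edgeR's quasi-likelihood method on the deposited counts with 1 mean per construct, and a gene was called where its p, adjusted by Benjamini and Hochberg, was under 0.05, whatever its fold. Within the 11 libraries of the larger set 3047 genes were called, within the 6 of the smaller set, which has 1 line per construct, 729 were, and with the set as a term in the fit 4884 were.

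The share of called genes differed with the level of expression. Among genes with a mean under 1 CPM 11.1% were called, between 1 and 10 CPM 14.8%, between 10 and 100 CPM 20.5%, and from 100 CPM upward 24.9%. The median size of the called differences was 1.19 on the log2 scale in the lowest class and 0.32 in the highest. In the class of 10 to 100 CPM more genes were lower under LBD11 than higher (1501 against 1133), and in the class from 100 CPM more were higher (310 against 215). The calls were spread over all 19 chromosomes, with 7.07% to 10.6% of the tested genes of a chromosome higher and 7.66% to 11.5% lower.

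The difference between the constructs was also examined with the line as the unit, since libraries of a line share their transformation event. On counts summed per line, 3 lines against 3, 2044 of 26555 genes tested (7.70%) were called, 1045 higher under LBD11 and 999 lower, and 1929 of them had been called in the same direction over libraries. Of the 4557 genes called over libraries, 4095 had all 3 LBD11-OE line means on the same side of all 3 LBD4-OE line means, 1935 higher and 2160 lower, as had 27.4% of all genes tested in either direction. The stricter order, with every single LBD11-OE library on the same side of every LBD4-OE library, was found for 469 of the higher and 344 of the lower genes, and for 3.27% of all genes tested in either direction. Among genes at least 2-fold apart, 195 of 373 higher genes (52.3%) and 97 of 303 lower genes (32.0%) had libraries that did not overlap. The library most often inside the range of the other construct among the 2-fold lower genes was LBD4-OE-17 replicate 2, for 144 genes (47.5%). LBD4-OE-11 replicate 1 was inside that range for 105 of these genes (34.7%), while the other 6 LBD4-OE libraries were inside it for 23 to 54. Without these 2 libraries, which were picked after their values were seen, 4620 genes were called, 2176 higher and 2444 lower.

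Lines of the same construct differed from each other as well, in tests that rest on fewer libraries. Among the 3 LBD11-OE lines 434 genes (1.74%) differed, and among the 3 LBD4-OE lines 85 (0.341%), in a fit with 1 mean per line. Of these 434 and 85 genes, 255 and 22 also differed between the constructs, as did 18.3% of all genes tested. The biological coefficient of variation within lines was 0.125 in LBD11-OE and 0.149 in LBD4-OE. The joint counts rested in part on single libraries. The LBD11-OE count was 154 without LBD11-OE-14 replicate 2 and 271 without LBD11-OE-14 replicate 3, and the LBD4-OE count was 42, 47 and 54 without LBD4-OE-14 replicate 1, LBD4-OE-14 replicate 2 and LBD4-OE-17 replicate 1, and 146 and 135 without LBD4-OE-11 replicate 3 and LBD11-OE-1 replicate 1.

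LBD11-OE-14 stood farthest from the LBD4-OE lines. It differed from LBD4-OE-11 in 3977 genes, from LBD4-OE-14 in 2498 and from LBD4-OE-17 in 3155. LBD11-OE-2 differed from the same lines in 1320, 1341 and 1335 genes, and LBD11-OE-1 in 3323, 1255 and 986. Between LBD11-OE-14 and LBD11-OE-1, 428 genes were higher and 105 lower in LBD11-OE-14, while LBD11-OE-1 and LBD11-OE-2 differed in 18 genes. For 63.2% of the genes higher under LBD11 and 55.5% of the lower ones, LBD11-OE-14 had the most extreme mean of the LBD11-OE lines. Without this line 2769 genes were called between the constructs, 1393 higher and 1376 lower. The direct comparison of every LBD11-OE line with every LBD4-OE line called 203 genes higher and 98 lower in all 9 pairs.

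**Figure D2:**
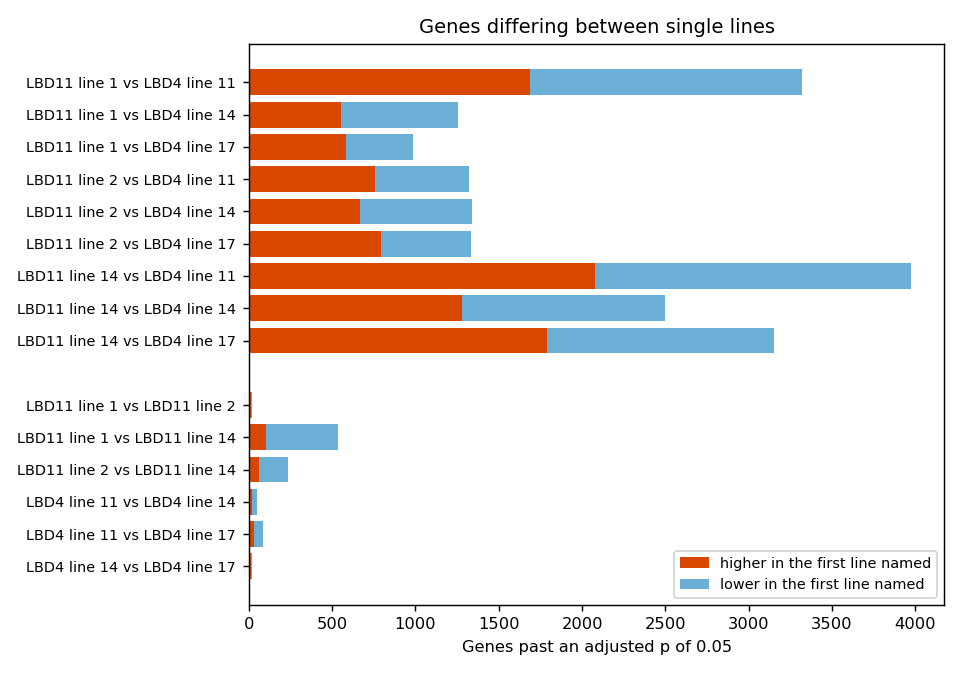
Genes past an adjusted p of 0.05 in edgeR between single lines, with the 9 pairs of an LBD11-OE and an LBD4-OE line above and the 6 pairs within a construct below; orange is higher and blue lower in the line named first. Pairs across constructs reach 986 to 3977 genes and pairs within a construct 18 to 533.

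The largest differences upward were genes almost silent under LBD4 and active under LBD11. The 12 genes named here had the largest fold among called genes with at least 5 CPM in the higher construct and with all line means apart. They reached means of 6.29 to 73.5 CPM in LBD11-OE against 0.00366 to 1.58 CPM in LBD4-OE, and 0.0113 to 0.944 CPM in WT. Their fitted log2 fold changes ran from 4.62 to 10.01, with edgeR adjusted p-values of 8.262e-09 to 5.013e-05. In all 12 every LBD11-OE library lay above every LBD4-OE library, and all 9 pairs of lines were called. These values come from the same libraries that were used to pick the genes, so they are no separate support. Over line totals 11 of the 12 were called, the exception being Potri.001G061100 (edgeR adjusted p = 0.0615).

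Potri.005G059900 (chromosome 5, 3782342 to 3787963, minus strand) had the largest of these folds. It was at 2.21, 3.32 and 4.37 CPM in the LBD11-OE-1 libraries, at 5.26, 6.36 and 2.30 CPM in LBD11-OE-2 and at 16.4, 15.7 and 15.7 CPM in LBD11-OE-14. It was at 0 in 7 of the 8 LBD4-OE libraries and at 0.0293 CPM in LBD4-OE-11 replicate 3, so the groups were wholly apart and LBD11-OE-14 was highest. The summed counts were 2269 under LBD11 and 1 under LBD4, a ratio of 2084 after scaling to library size (exact 95% interval 374 to 82339, covering counting error only). The fitted log2 fold change of 10.01 with an SE of 0.92 (edgeR adjusted p = 1.424e-06) depends on the prior count, since the lower group is close to 0.

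Potri.011G126000 (chromosome 11, 15701321 to 15701888, minus strand) had 1846 counts against 14, a ratio of 121 (exact 95% interval 72.0 to 222). Its lowest, median and highest LBD11-OE libraries were at 3.42, 5.11 and 14.6 CPM, and its LBD4-OE libraries at 0, 0.0300 and 0.190 CPM. The groups did not overlap. The fitted log2 fold change was 6.83 with an SE of 0.50 (edgeR adjusted p = 3.373e-08). Potri.010G224600 (chromosome 10, 20867905 to 20871951, plus strand) was the most even of the 12 across the LBD11-OE lines, with means of 6.27, 7.61 and 9.20 CPM in lines 1, 2 and 14. Its LBD4-OE libraries spanned 0.0262 to 0.556 CPM around a median of 0.137 CPM, far under the lowest LBD11-OE library at 4.11 CPM. Its log2 fold change was 5.41 with an SE of 0.36 (edgeR adjusted p = 8.262e-09).

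The other 9 genes followed the same order of constructs. Potri.019G056000 (chromosome 19, 9480859 to 9481624) rose from 1.58 ± 1.44 CPM in LBD4-OE (SD, n = 8) to 73.5 ± 47.4 CPM in LBD11-OE (SD, n = 9), and Potri.005G131000 (chromosome 5, 10088490 to 10088975) from 0.484 ± 0.450 to 31.8 ± 14.2 CPM on the same scale and numbers of libraries. Potri.009G143800, Potri.005G187600, Potri.006G001301, Potri.001G061100 and Potri.001G435800 were at 6.29 to 19.2 CPM in LBD11-OE and under 0.5 CPM in LBD4-OE. Potri.009G109200 and Potri.009G109300 lie next to each other on chromosome 9 (9413847 to 9414288 and 9416720 to 9416927, both plus strand) and had log2 fold changes of 5.13 ± 0.52 and 4.66 ± 0.36 (SE). In 11 of the 12 genes LBD11-OE-14 had the highest line mean, and in 9 its 3 libraries were above the other 6 LBD11-OE libraries. The ratio of the LBD11-OE-14 mean to the LBD11-OE-1 mean was 1.47 to 5.31 with a median of 2.58. A joint test among the LBD11-OE lines passed the threshold for 3 of the 12, Potri.005G059900, Potri.005G187600 and Potri.001G061100 (edgeR adjusted p = 0.00139, 0.00723 and 0.0154), and among the LBD4-OE lines for none of them, with a lowest edgeR adjusted p of 0.123.

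**Figure D3:**
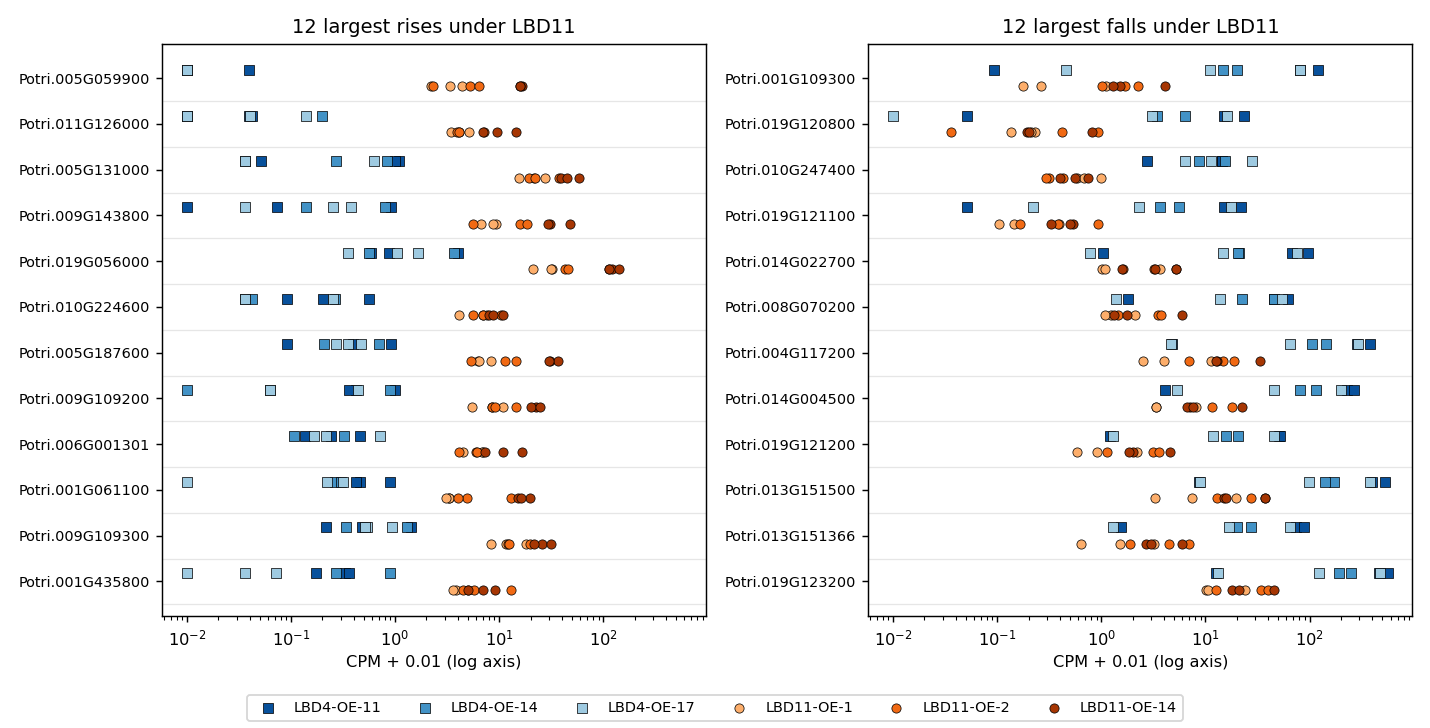
CPM plus 0.01 on a log axis in each of the 17 libraries for the 12 genes with the largest rise (left) and the 12 with the largest fall (right) under LBD11, squares for LBD4-OE and circles for LBD11-OE. On the left the constructs are apart in all 12 genes. On the right a pair of LBD4-OE libraries lies at or under the highest LBD11-OE library in 11 of 12 genes.

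A stricter limit, a mean under 0.1 CPM in a construct and at least 1 CPM in each line of the other, was met by 4 genes on under LBD11 and by 0 genes on under LBD4. Besides Potri.005G059900 and Potri.011G126000 these were Potri.019G117700 (chromosome 19, 14393757 to 14394884, minus strand) and Potri.016G101100 (chromosome 16, 10194549 to 10197776, minus strand). Potri.019G117700 was at 1.68, 3.00 and 9.22 CPM in its lowest, median and highest LBD11-OE library and at 0, 0 and 0.0523 CPM in LBD4-OE. Potri.016G101100 was at 0.537, 2.60 and 10.9 CPM in LBD11-OE and at 0, 0.0834 and 0.253 CPM in LBD4-OE, so that its groups also did not overlap although they came close. The ratios of scaled counts were 243 (exact 95% interval 94.6 to 893, 1058 counts against 4) and 44.3 (29.8 to 68.7, 1205 counts against 25). Both differed among the LBD11-OE lines (edgeR adjusted p = 0.0170 and 0.00705), with means in LBD11-OE-14 of 6.64 and 8.94 CPM against 2.33 and 1.28 CPM in LBD11-OE-1. Over line totals Potri.016G101100 missed the threshold (edgeR adjusted p = 0.0595).

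The largest differences downward were of another kind. A single gene among the 12, Potri.010G247400 (chromosome 10, 22173581 to 22176034, minus strand), was low in every LBD11-OE library and higher in every LBD4-OE library. It was at 0.283, 0.554 and 0.981 CPM in its lowest, median and highest LBD11-OE library and at 2.71, 12.8 and 27.8 CPM in LBD4-OE. Its log2 fold change was -4.53 with an SE of 0.40 (edgeR adjusted p = 9.203e-07), and all 9 pairs of lines were called. The WT level was 1.83 ± 0.620 CPM (SD, n = 5), between the levels of the constructs.

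The other 11 falls varied together across the LBD4-OE libraries. Potri.001G109300 (chromosome 1, 8810562 to 8813009, plus strand) was at 81.0 and 121 CPM in LBD4-OE-11 replicates 2 and 3, at 20.1 and 14.8 CPM in LBD4-OE-14, and at 11.01 and 80.1 CPM in LBD4-OE-17 replicates 1 and 3. It was at 0.0822 CPM in LBD4-OE-11 replicate 1, under the range of 0.167 to 4.08 CPM of the 9 LBD11-OE libraries. In LBD4-OE-17 replicate 2 it was at 0.447 CPM, inside that range. Its log2 fold change of -4.80 with an SE of 0.98 (edgeR adjusted p = 0.00283) therefore stands on 6 of the 8 LBD4-OE libraries. The same 2 libraries lay at or under the highest LBD11-OE library in all 11 genes, and the other 6 lay above every LBD11-OE library in all 11. The WT means of the 11 genes were 5.86 to 296 CPM, beside 8.25 to 262 CPM in LBD4-OE and 0.343 to 23.9 CPM in LBD11-OE. WT also varied: replicate 3 was at or under the highest LBD11-OE library in 10 of the 11 genes, and the other 4 WT libraries were above it in all 11. For Potri.001G109300 WT spanned 0.531 to 72.8 CPM.

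These 11 genes were called in the main test at edgeR adjusted p-values up to 0.00462 and 10 of them over line totals, the exception being Potri.001G109300 (edgeR adjusted p = 0.0602). Each of the 11 was called in at most 1 of the 9 pairs of lines. With lines as random blocks in limma voom 10 of the 11 missed the threshold, Potri.019G123200 alone passing, and in plain limma voom 7 did. Without LBD4-OE-11 replicate 1 and LBD4-OE-17 replicate 2 the log2 fold changes were -5.22 to -3.85. These libraries were picked after their values were seen and hold the lowest LBD4-OE levels of these genes, so leaving them out enlarges the difference by construction. Besides Potri.001G109300 the genes were Potri.019G120800, Potri.019G121100, Potri.019G121200, Potri.019G123200, Potri.013G151500, Potri.013G151366, Potri.014G022700, Potri.014G004500, Potri.008G070200 and Potri.004G117200. The last overlaps a gene on the opposite strand, and its reads could not be told from that gene's with certainty because the strand setting of the counting was not given in the sources used here.

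On the scale of CPM rather than fold, the largest differences lay in genes expressed at high levels in both constructs. Potri.006G052800 (chromosome 6, 3653690 to 3659548, minus strand) was at 1349, 1808 and 2405 CPM in its lowest, median and highest LBD11-OE library and at 904, 1071 and 1184 CPM in LBD4-OE. Its groups did not overlap, all 9 pairs of lines were called, and the log2 fold change was 0.73 with an SE of 0.09 (edgeR adjusted p = 1.180e-05). Its WT level was 776 ± 142 CPM (SD, n = 5), under both. Potri.005G162800 (chromosome 5, 16037061 to 16041834, minus strand) was at 1803 ± 403 CPM in LBD11-OE (SD, n = 9) and 974 ± 131 CPM in LBD4-OE (SD, n = 8), again without overlap, and differed among the LBD11-OE lines with 2293 CPM in LBD11-OE-14 against 1496 CPM in LBD11-OE-1 (edgeR adjusted p = 0.00604). Potri.013G157900 and Potri.002G257900 were also higher under LBD11, by 857 and 655 CPM on average. Their libraries overlapped between constructs, 6 of the 9 pairs of lines were called for each, neither passed over line totals (edgeR adjusted p = 0.0671 and 0.105), and the second overlaps a gene on the opposite strand.

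In the other direction Potri.002G223100 (chromosome 2, 20747768 to 20749165, minus strand) was at 596, 962 and 1276 CPM in its lowest, median and highest LBD11-OE library and at 1355, 1735 and 1989 CPM in LBD4-OE. All LBD11-OE libraries lay under all LBD4-OE libraries, and the LBD11-OE-14 mean of 706 CPM was lowest. The log2 fold change was -0.86 with an SE of 0.12 (edgeR adjusted p = 3.222e-05). Potri.014G162800 (chromosome 14, 11718314 to 11719701, minus strand) was at 556 ± 45.4 CPM in LBD11-OE (SD, n = 9) and 806 ± 67.6 CPM in LBD4-OE (SD, n = 8), with no overlap, the log2 fold change being -0.53 with an SE of 0.06 (edgeR adjusted p = 3.965e-06) and LBD11-OE line means of 539 to 589 CPM. Potri.009G030800 (chromosome 9, 4185661 to 4186492, plus strand) was lower by 306 CPM on average, with overlapping libraries and an edgeR adjusted p of 0.105 over line totals. Potri.019G123200, named above, was the fourth.

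Genes of wood formation were followed through 11 lists of poplar identifiers made from general knowledge of the literature. Which gene each identifier stands for could not be checked without an annotation, so members are described without their identifiers. Of 83 listed genes tested, 27 (32.5%) differed between the constructs, 20 higher and 7 lower, beside 18.3% of all genes, and all of these differences were small, between 0.18 and 0.83 in size on the log2 scale. Over line totals 12 listed genes were called, beside 7.70% of all genes tested. Within the smaller library set 5 were, beside 729 of 24949 genes tested. In the main test 8.75% of all genes were higher and 9.54% lower, for comparison with the counts of single lists below. For 5 of the 27 every library of a construct lay apart from the other. The median log2 fold change over all genes tested was 1.167e-04.

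Enzymes at the entry of phenylpropanoid metabolism, which feed carbon from phenylalanine towards lignin, showed the largest of these differences. Of 9 tested, 3 were higher under LBD11 and 0 lower, by edgeR, DESeq2 and limma voom alike. At an unadjusted p under 0.05 the counts were 4 and 0. The 3 called are 33.3% of the list, beside 8.75% of all genes tested called higher. These 3 rose by 0.66 to 0.83 on the log2 scale, the highest from 639 ± 129 CPM in LBD4-OE (SD, n = 8) to 1134 ± 227 CPM in LBD11-OE (SD, n = 9), while the other 6 were between -0.15 and 0.13 and the median of the list was 0.10. The summed level of the list was 5971, 8087 and 10069.5 CPM in the lowest, median and highest LBD11-OE library and 5147, 5647 and 7178 CPM in LBD4-OE. The ranges overlapped, and the LBD11-OE-14 mean of 9284 CPM was the highest of the 6 lines. LBD11-OE-1 and LBD11-OE-2 averaged 6979 and 7987 CPM. LBD4-OE-11, LBD4-OE-14 and LBD4-OE-17 averaged 5986, 6898 and 5478 CPM. Over line totals 2 genes of the list were called, and in 1 the LBD11-OE lines differed among themselves.

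Of 14 later enzymes of lignin monomer synthesis, which hydroxylate, methylate and reduce the monomers, 8 were higher under LBD11 and 0 lower, with 9 and 0 by DESeq2, 8 and 0 by limma voom and 9 and 0 at an unadjusted p under 0.05. The 8 called in edgeR are 57.1% of the list, beside 8.75% of all genes tested called higher. Rises of the 8 were 0.19 to 0.62, and the median over all 14 was 0.26. In 5 of the 14 the LBD11-OE lines differed among themselves, in 4 of the 8 called genes all line means were apart between constructs, and over line totals 2 were called. Without single lines the count called higher was 4 to 10, with 5 without LBD4-OE-11 and 4 without LBD4-OE-17 or LBD11-OE-14. The summed level was 11216 to 14261.5 CPM in LBD11-OE and 9144 to 12716 CPM in LBD4-OE. By line the means were 11697, 11935 and 13641 CPM in LBD11-OE-1, LBD11-OE-2 and LBD11-OE-14 and 10230.4, 12610.0 and 10162 CPM in LBD4-OE-11, LBD4-OE-14 and LBD4-OE-17, so LBD4-OE-14 lay above a pair of LBD11-OE lines.

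Cellulose and xylan genes that passed the test were all higher under LBD11. The calls are 40% of the secondary wall and 33.3% of the primary wall cellulose synthases, beside 8.75% of all genes tested called higher. Of 5 secondary wall cellulose synthases, the enzymes that make the cellulose of wood, 2 were higher (0.50 for both) and 3 were between -0.18 and 0.15, with a median of 0.15. The LBD11-OE lines differed among themselves in 3 of the 5, and neither of the 2 was called over line totals. The summed level of these 5 genes averaged 6772 CPM in LBD11-OE-14, 4719.7 CPM in LBD11-OE-1, 4957 CPM in LBD11-OE-2 and 4318.5 to 5399.5 CPM in the LBD4-OE lines. Of 12 primary wall cellulose synthases, which serve growing cells, 4 were higher by 0.19 to 0.39, with a median of 0.12 over the list. In the list, 1 gene was called over line totals, and 2 were higher without line LBD4-OE-11 or without LBD11-OE-14. Of 7 xylan synthases 1 was higher, by 0.54, with a median of 0.14, and this gene was not called over line totals. Without line LBD4-OE-14, or without LBD11-OE-1, 2 were higher. That 1 of 7 is 14.3%, beside 18.3% of all genes tested in either direction. In these 3 lists 0 genes were lower by edgeR, DESeq2 or limma voom, and 1 primary wall gene was lower at an unadjusted p under 0.05. Of 4 sucrose synthases and membrane cellulases, which supply and trim cellulose, 0 were called by edgeR or limma voom, and 1 was higher by DESeq2 and at an unadjusted p under 0.05.

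Few of the listed transcription factors of the secondary wall and the cambium passed the test, in lists of 5 to 10 genes. Over all genes tested 18.3% were called, 8.75% higher and 9.54% lower, so counts of 0 or 1 in such short lists say little. Of 10 tested NAC factors of wood fibres and vessels, which switch on secondary wall programmes, 1 was higher, by 0.65, and the other 9 were between -0.15 and 0.30 and did not pass. Of 6 MYB factors that act below them, 0 passed in edgeR, and 1 was higher and 1 lower by DESeq2, by limma voom and at an unadjusted p under 0.05. Of 5 regulators of the cambium, 0 passed in edgeR or limma voom, and 1 was lower by DESeq2 and at an unadjusted p under 0.05. The medians of these 3 lists were 0.07, -0.09 and 0.03. The summed level of the cambium regulators was 1103 to 1579.7 CPM in LBD11-OE and 1123 to 1354 CPM in LBD4-OE.

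The class III homeodomain leucine zipper factors (HD-ZIP III), which pattern the vascular tissue and set the polarity of organs, were the list with most members lower. Of 8 tested, 5 were lower under LBD11 by 0.30 to 0.40, 1 was higher by 0.18 and 2 did not pass. The 6 called are 75% of the list, beside 18.3% of all genes tested in either direction and 9.54% lower. The median of the list was -0.32. The summed level of the list was 1470.4, 1503 and 1572 CPM in the lowest, median and highest LBD11-OE library and 1655, 1842 and 1976 CPM in LBD4-OE. The ranges did not overlap, and this was the sole list of the 11 for which the sums were apart. All line means were apart in the direction of the call for all 6 called genes, and 4 were called over line totals. By line the sums averaged 1485 to 1531 CPM in LBD11-OE and 1747 to 1939 CPM in LBD4-OE. Within the smaller library set, with LBD11-OE-2 against LBD4-OE-11, none of the 8 passed in edgeR, and the median was -0.26.

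The circadian clock list, kept as a sign of the hour at which stems were taken, held 3 genes of which 2 were lower under LBD11, by 0.45 and 0.49, and 1 did not pass at 0.15. The 2 were called over line totals as well. Of all genes tested 9.54% were lower in the main test, and 7.70% were called over line totals. The summed level was 183, 198 and 244 CPM in the lowest, median and highest LBD11-OE library and 228, 270 and 332 CPM in LBD4-OE, with overlap. The labels give no hour of harvest, and its part in the other differences was not tested.

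**Figure D4:**
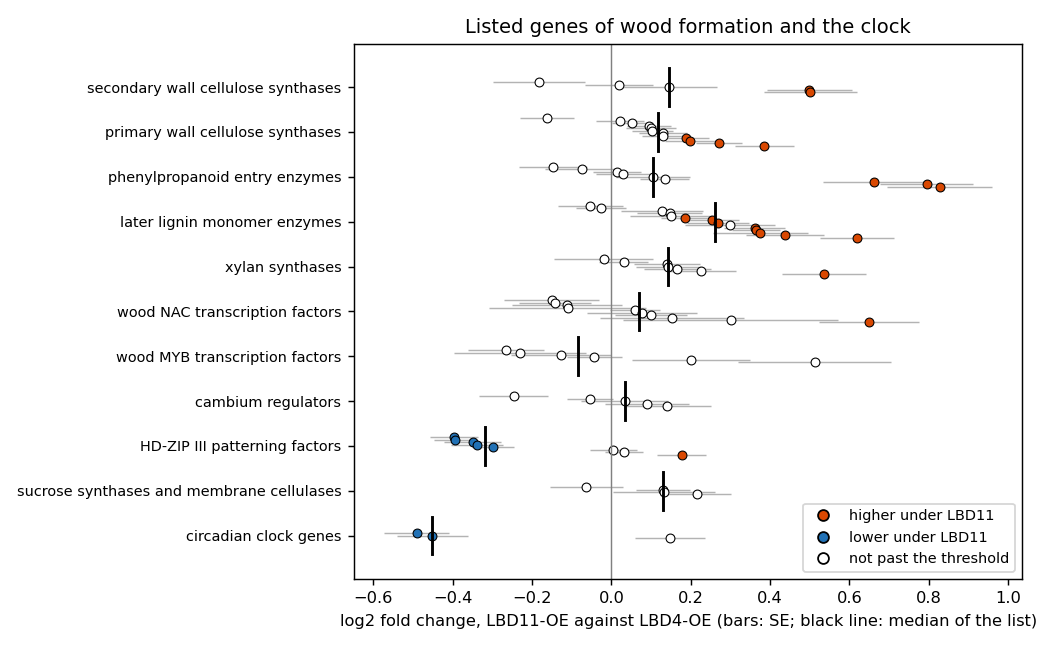
The log2 fold change between LBD11-OE and LBD4-OE with its standard error for the 83 tested genes of the 11 lists, with the median of each list as a black line and filled points past an adjusted p of 0.05. Most HD-ZIP III genes lie to the left (median -0.32), later lignin monomer enzymes mostly to the right (median 0.26), and 27 of the 83 pass.

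Some called genes also lay side by side. Runs of at least 4 neighbouring tested genes, all called in the same direction, were counted. There were 12 higher under LBD11, with 50 of the 2180 higher genes, and 11 lower, with 55 of the 2377 lower genes. How many runs the call rates of 8.75% and 9.54% would give without regard to position was not tested. The longest was a run of 10 genes lower under LBD11 on chromosome 14, from Potri.014G182321 to Potri.014G184600 (14299522 to 14914076, 615 kb with 11 gene models, 1 of them not tested). Their log2 fold changes were -1.98 to -0.96 with a median of -1.26, and 9 of the 10 are on the minus strand. Potri.014G184300, the lowest, was at 1.28, 2.13 and 4.01 CPM in its lowest, median and highest LBD11-OE library and at 3.00, 9.32 and 16.02 CPM in LBD4-OE. All line means were apart in all 10 genes, and every library was apart in 1 of them, Potri.014G182321. LBD4-OE-11 replicate 1 lay at or under the highest LBD11-OE library in 9 of the 10 and LBD4-OE-17 replicate 2 in 8. Without this pair, picked as above, the log2 fold changes were -2.26 to -1.12.

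The longest runs upward had 5 genes each. On chromosome 19 it ran from Potri.019G116500 to Potri.019G116866 (14352191 to 14365145, all minus strand), with a median log2 fold change of 1.72 and single values of 0.29 to 4.67. Potri.019G116600 in this run was at 13.04, 16.2 and 33.3 CPM in its lowest, median and highest LBD11-OE library and at 1.96, 2.86 and 3.997 CPM in LBD4-OE, with a log2 fold change of 2.74 with an SE of 0.22 (edgeR adjusted p = 1.188e-07). Every library was apart for 3 of the 5 genes. The weakest member, Potri.019G116700, passed narrowly (log2 fold change 0.29 with an SE of 0.10, edgeR adjusted p = 0.0393) and missed the threshold when any of 11 single libraries was left out, with an adjusted p of up to 0.0811. The run on the unplaced sequence scaffold_25, from Potri.T012400 to Potri.T012800 (208269 to 248895), had log2 fold changes of 0.41 to 1.35 with a median of 0.70, and all line means were apart in all 5 genes.

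Another 3 runs, picked after their values were seen, held genes named above. Beyond the end of the chromosome 19 run, 4 genes from Potri.019G117402 to Potri.019G117700 (14377479 to 14394884) were higher under LBD11 by 3.34 to 7.62 on the log2 scale, and every library was apart in all 4. Farther along the chromosome, 6 genes from Potri.019G120800 to Potri.019G123200 (14734475 to 14775714) were lower with a median of -3.48. On chromosome 13, 4 genes from Potri.013G151300 to Potri.013G151500 (14764242 to 14791097) were lower with a median of -3.33. The lower runs on chromosomes 13 and 19 hold 6 of the 11 falls that vary together, and no gene in them had every library apart. Neighbouring genes of high similarity can share reads, and their values are uncertain to that extent.

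**Figure D5:**
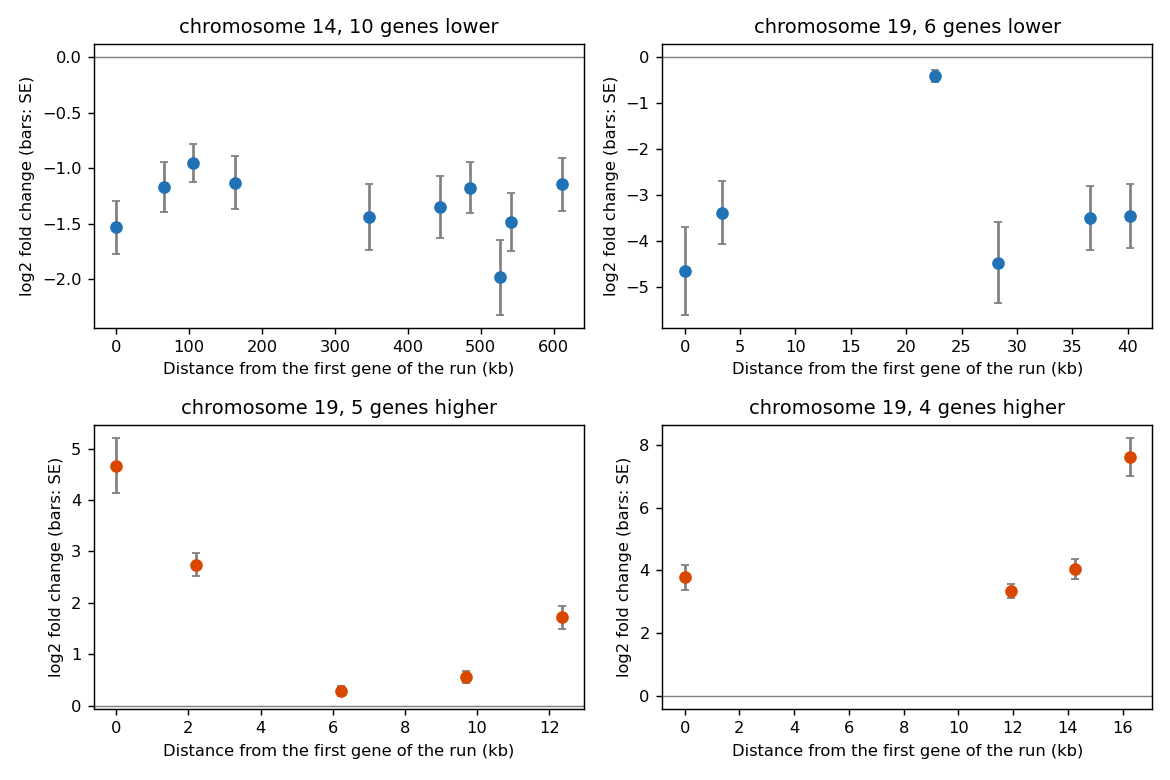
The log2 fold change of LBD11-OE against LBD4-OE with its standard error for 4 runs of neighbouring genes, against the distance in kb from the start of the first gene. The chromosome 14 run lies between -1.98 and -0.96 throughout its 10 genes, and the runs on chromosome 19 reach -4.65 and 7.62.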

How the data were processed

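Poly(A) RNA from column-purified, DNase-treated extracts was sequenced as paired reads on an Illumina HiSeq, per the labels' protocols. Trimmomatic, HISAT2, HTSeq, Cufflinks and MultiQC are named in the submitters' processing notes, with tool versions, build of the genome and strandedness of the counting not given in the sources used here. Files deposited by the authors hold raw read counts per gene and library from HTSeq, per the labels, for 34699 Potri gene models. Reads of a hybrid counted on models of a related species can miss alleles or close copies, and overlapping genes on opposite strands are uncertain. No genome or annotation was used, no sequence is printed, and lists that could only be filled from product names (phloem, epidermis, photosynthesis and others, the markers of other cell types included) were not tested.

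From these counts, genes passing edgeR's expression filter (minimum count 10, minimum total 15) were TMM-normalized and tested with edgeR 4.0.16 in R 4.3.3 (quasi-likelihood, robust, 1 mean per construct over 17 libraries, Benjamini-Hochberg over all genes tested). Further fits took counts summed per line, or 1 mean per line. CPM values use TMM-scaled library sizes, and WT levels come from a scaling over all 22 libraries. Alternatives used DESeq2 1.42.0 and limma 3.58.1, other filters, a replicate block, and fits without single libraries or lines. Replicate pairs differed by more than sampling noise (chi-square per degree of freedom at least 6.61), so none was merged. The scripts were tested on simulated counts. Named were the 12 largest folds and 4 largest CPM differences per direction among called genes at 5 CPM or more in the higher construct with all line means apart. Also named, without these limits, were genes under 0.1 CPM in 1 construct against at least 1 CPM per line in the other, and the longest runs. The libraries, lists, rules and named genes were chosen with earlier results of these data known.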

Additional observations from a re-analysis of the deposited data

Results flagged for a closer look

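In 7 of 132 groups of library values examined, 1 library stood far from the rest by Dixon's test. Chance alone flags about 1 of 20 groups of independent, normally distributed values, and 7 of 132 is near that share. The groups share libraries and include values at or near 0, so this comparison is rough. Among LBD4-OE libraries of genes higher under LBD11, Potri.005G059900 was at 0.0293 CPM, a count of 1, in LBD4-OE-11 replicate 3 and at 0 in the others. Potri.010G224600 was at 0.556 CPM in the same library, next to 0.253 CPM. Potri.001G435800 was at 0.886 CPM in LBD4-OE-14 replicate 1, next to 0.351 CPM. Among LBD11-OE libraries, LBD11-OE-1 replicate 3 was highest for Potri.T012600 at 2.84 CPM, next to 2.07 CPM, and for Potri.014G184400 at 4.74 CPM, next to 2.88 CPM. The summed level of the cambium regulators was 1579.7 CPM in LBD11-OE-1 replicate 1, next to 1307 CPM. On principal component 1, LBD4-OE-17 replicate 2 was at -18.3 and the nearest other LBD4-OE library at -32.7. Whether anything sets these libraries apart was not tested.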

How the results depend on the processing

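The 4557 genes called between the constructs were 4512 with DESeq2 size factors, 5179 in the DESeq2 Wald test, 4599 in limma voom, 5377 with 1 mean per line, 4346 with all 22 libraries in the fit, 4488 without a filter and 4363 with a filter of 1 CPM. With lines as random blocks in limma voom (estimated correlation within lines 0.152) 3017 were called, 1507 of them lower. Without line LBD11-OE-14 the count was 2769 (1393 higher, 1376 lower), within the larger library set, a split made after seeing the data, 1514 were lower, and within the smaller set 729 were called (453 higher, 276 lower, 285 at least 2-fold), 62.1% of them higher against 47.8% in the whole. Listed genes called fell from 27 to 5 within the smaller set and to 12 over line totals. Calls among all genes tested fell in the same fits, from 4557 to 729 and to 2044. With the replicate block 4395 were called. Same-numbered libraries of different lines had correlations of -0.237 to 0.120, with 1 of 24 over 0.1, so a pairing by number was not shown. Leaving out each library gave 3909 to 4720 calls between constructs, 1500 to 2412 over line totals (2044 with all), 154 to 616 among LBD11-OE lines (434 with all) and 42 to 146 among LBD4-OE lines (85 with all). Of 53 genes named, 19 kept their call within the smaller set, 41 with lines as random blocks, 43 over line totals, 46 in limma voom and 50 within the larger set; within the smaller set 11 of the 12 largest falls lost it. The direction of the 53 held under 37 alternatives, which says little, because the genes were picked by their values in these same libraries. The lists' counts and medians are limited by their 3 to 14 genes, and low genes by counting error. The cause of these changes was not tested.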
